A study of Mus musculus with 20 samples.

Results

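The 9 genes described here make or limit the reactive and lipid mediators of an activated macrophage. They are Nos2, Gch1, Acod1, Ptgs2 and Sod2, which encode inducible enzymes, and Cybb, Cyba, Ncf1 and Ncf4, which encode subunits of the phagocyte NADPH oxidase. They were chosen by name for these functions, out of 21887 protein-coding genes with a position in the mm10 build. A peak was assigned to a gene when its centre lay within 10 kb of the gene's span. By this rule the 9 genes held 209 of the 258959 peaks in the 12 lists.

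The cells were bone marrow-derived macrophages (BMDM) grown in M-CSF from mouse bone marrow, KO or WT, and were left untreated (control) or given LPS at 100 ng/mL for 30 min or 8 h. CUT&RUN, in which an antibody directs a nuclease to cut out the DNA near its target, was carried out after brief formaldehyde fixation with an antibody against p65 or against SOCS1, giving 1 library for each antibody, genotype and treatment. The design text calls the KO "NOS1 KO" and the wild type "C65BL6", whereas the series title is about SOCS1. The disrupted gene was not identified further here, so the cells are called KO as labelled. The age and number of the mice are not given in the sources used here. Of the marker genes looked at, those of macrophages carried peaks most often: between 6 and 8 of 8 had a peak within 10 kb in each list. The other ranges were 1 to 5 of 6 neutrophil, 0 to 3 of 6 lymphocyte, 0 to 2 of 5 neuron and 0 to 1 of 4 hepatocyte markers. Of all genes, 32.4% to 65.4% had a peak, depending on the list. The highest neutrophil count, 5 of 6, was for p65 in KO cells at 30 min, where all genes gave 65.4%. A peak near a gene is not a measure of its expression.

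NF-kB p65 (RelA) is the transactivating subunit that moves into the nucleus after LPS engages Toll-like receptor signalling, and binds sites near inflammatory genes. SOCS1 is best known as a cytokine-inducible inhibitor of JAK kinases that also limits Toll-like receptor signalling. Inducible nitric oxide synthase, prostaglandin synthase and itaconate synthesis are classical products of LPS-treated mouse macrophages. The NADPH oxidase is assembled on demand from a membrane-bound pair of subunits and cytosolic partners, and transfers electrons to oxygen to form superoxide.

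Each peak carries a Normalized Tag Count, which is its number of tags rescaled, in the authors' processing, as if 10000000 tags had been sequenced. Libraries held 6.93 to 18.4 M tags (10 M are 10000000), and lists 9438 to 43124 peaks. Peaks had 1 width within a list but 222 to 492 bp across lists, so a ratio between lists also depends on width. KO control cells stood apart in their IgG tags, which were at the floor of 0.5 under 91.4% of p65 peaks and 88.0% of SOCS1 peaks; elsewhere the range was 14.7% to 43.0%. The lowest Normalized Tag Count in a list was 6.51 to 10.3, and a site without a call may still be bound below that level. No replicate error and no test between groups could be had from 1 library per group. The 95% intervals given are exact and cover counting error only.

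Promoter sequences are shown for Ptgs2 and Ncf1, whose windows were overlapped by peaks in the most lists, and for Acod1, which had the strongest p65 peaks around its start. Each is the 250 bases before the RefSeq start site in GRCm38.p6 (mm10), 5′ to 3′ on the gene's own strand, with matches to the NF-kB-type motif (GGG and CC with any 5 bases between them), searched on both strands, in capitals. Ptgs2 is on the plus strand at chr1:150099781-150100030, Acod1 on the plus strand at chr14:103046762-103047011 and Ncf1 on the minus strand at chr5:134229626-134229875.
Ptgs2: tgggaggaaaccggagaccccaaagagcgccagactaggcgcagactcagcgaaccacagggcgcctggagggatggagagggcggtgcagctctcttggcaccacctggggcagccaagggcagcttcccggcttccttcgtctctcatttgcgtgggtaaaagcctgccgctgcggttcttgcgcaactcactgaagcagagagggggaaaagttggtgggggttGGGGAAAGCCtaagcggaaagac
Acod1: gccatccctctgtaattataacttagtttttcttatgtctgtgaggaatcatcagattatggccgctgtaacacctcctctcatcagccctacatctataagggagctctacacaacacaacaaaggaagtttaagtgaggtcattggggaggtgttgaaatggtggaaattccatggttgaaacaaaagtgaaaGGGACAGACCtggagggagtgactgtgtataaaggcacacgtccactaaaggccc
Ncf1: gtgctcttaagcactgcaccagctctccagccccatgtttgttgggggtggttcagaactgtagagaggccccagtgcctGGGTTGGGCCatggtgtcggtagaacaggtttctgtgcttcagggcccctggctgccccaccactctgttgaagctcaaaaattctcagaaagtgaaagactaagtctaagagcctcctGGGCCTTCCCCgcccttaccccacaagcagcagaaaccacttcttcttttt
The motif began 23 bases before the start of Ptgs2 and 55 bases before that of Acod1. In Ncf1 it began 170, 51 and 50 bases before the start, the last 2 matches overlapping. All 7 genes with a promoter in the RefSeq table (Acod1, Ptgs2, Gch1, Sod2, Cybb, Cyba and Ncf1) held the motif, as did 45.8% of all 32851 promoters. TTCNNNGAA, a STAT-type motif, was found in 2 of them (Sod2 and Ncf1), against 7.02% of all promoters. An interferon-response-type motif (GAAA on each side of any 2 bases) was found in 2 (Cybb and Ncf1), against 2.98%, and TGANTCA, the AP-1 motif, in 1 (Cybb), against 6.75%. Peaks overlapped the printed window of Ptgs2 in 8 lists, all 8 from LPS-treated cells. They overlapped that of Ncf1 in 7 lists and that of Acod1 in 3. Windows not printed were overlapped at Gch1 in 4 lists, Cyba in 3, Cybb in 1 and Sod2 in 0. A match is a description of these letters and not a bound site.

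In untreated cells 4 (KO) and 5 (WT) of the 9 genes had a p65 peak, and after LPS 8 or 9 did. In KO cells p65 peaks lay near 4 of the 9 genes in control, 9 at 30 min and 8 at 8 h, where 35.8%, 65.4% and 55.5% of all genes had one. In WT cells they lay near 5, 9 and 9 of the genes, where 32.7%, 61.9% and 55.9% of all genes had one. For SOCS1 the genes numbered 7, 8 and 9 in KO cells (55.3%, 51.0% and 44.6% of all genes), and 3, 8 and 8 in WT cells (32.4%, 47.7% and 38.6% of all genes). The share of the 9 genes lay above the share of all genes in each of the 12 lists, by the smallest margin in SOCS1 WT control. These counts depend on the authors' threshold of 4-fold over the local background. At 8-fold, p65 peaks lay near 3, 7 and 3 of the genes in KO control, 30 min and 8 h (25.0%, 57.4% and 32.6% of all genes), so that KO cells at 8 h no longer exceeded KO control. In WT cells p65 peaks of that strength lay near 1, 7 and 8 (20.0%, 51.4% and 45.6% of all genes). For SOCS1 they lay near 5, 4 and 2 genes in KO cells (45.7%, 41.7% and 30.6% of all genes), where the order of the treatments turned, and 1, 6 and 4 in WT cells (24.8%, 41.4% and 28.8% of all genes). At 8-fold the share of the 9 genes was below that of all genes in p65 WT control, SOCS1 WT control and SOCS1 KO 8 h. The median length was 10.3 kb for the 9 genes and 17.2 kb for all genes.

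Control peaks of p65 in both genotypes and of SOCS1 in KO cells lay near genes of both groups. Those of SOCS1 in WT cells lay near oxidase genes only. No difference between the groups was tested. A p65 peak was called at 3 of the 4 oxidase genes in KO control cells and 3 in WT control cells, and a SOCS1 peak at 4 in KO and 3 in WT. Of all genes, 35.8% (KO) and 32.7% (WT) had a p65 control peak, and 55.3% and 32.4% a SOCS1 control peak. Of the 5 inducible enzymes, p65 control peaks were called at 1 in KO cells (Gch1) and 2 in WT cells (Gch1 and Acod1). SOCS1 control peaks were called at 3 of these 5 enzymes in KO cells, close to the 55.3% of all genes, and at 0 in WT cells. At 8-fold over the local background the only p65 peak left in WT control was at Gch1 (20.0% of all genes had one), and the only SOCS1 peak at Cyba (24.8%). In the LPS lists the oxidase genes had peaks of each antibody at 4 of 4, and the inducible enzymes at 4 or 5 of 5, where 38.6% to 65.4% of all genes had one.

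**Figure D1:**
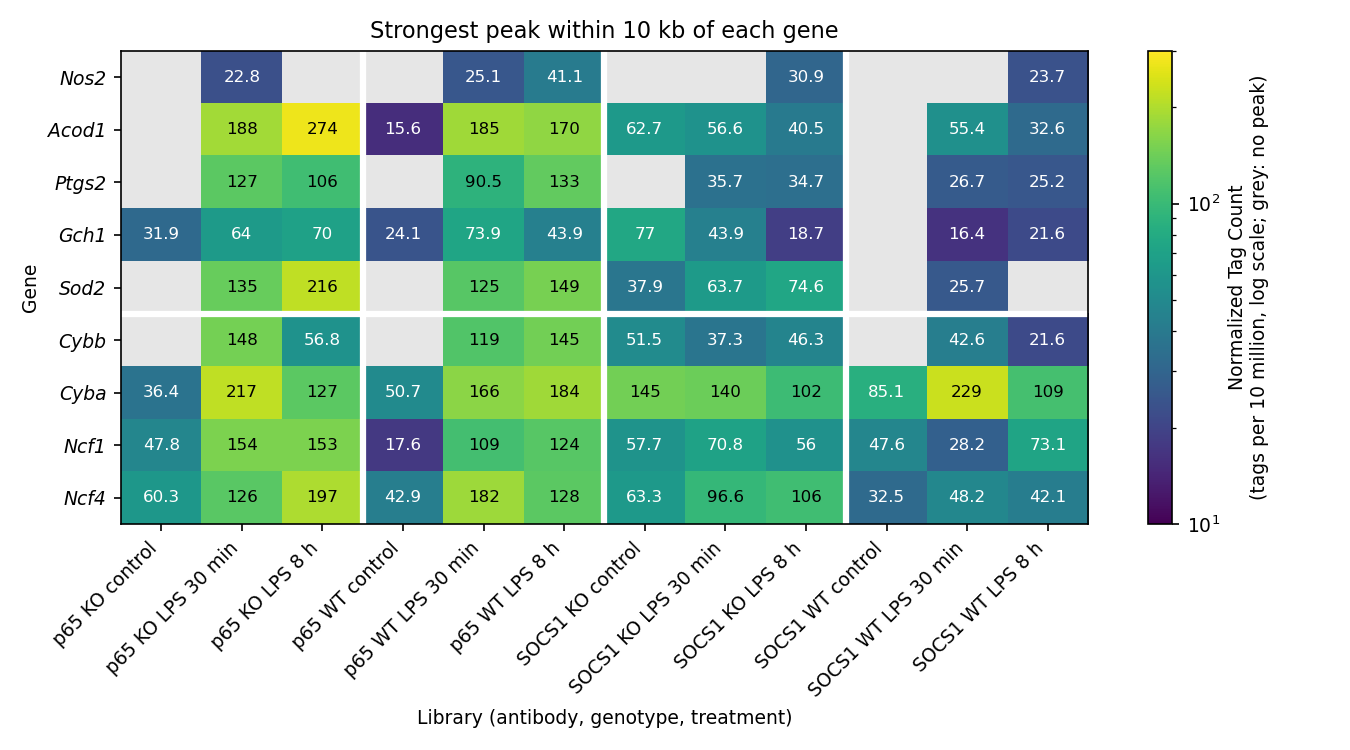
Normalized Tag Count of the strongest peak within 10 kb of each gene (rows) in each library (columns; colour on a log scale, grey where no peak was called). Control columns are grey for Nos2 and Ptgs2 throughout, and Acod1 reaches the highest value, 274.1, in p65 of KO cells at 8 h.

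**Figure D2:**
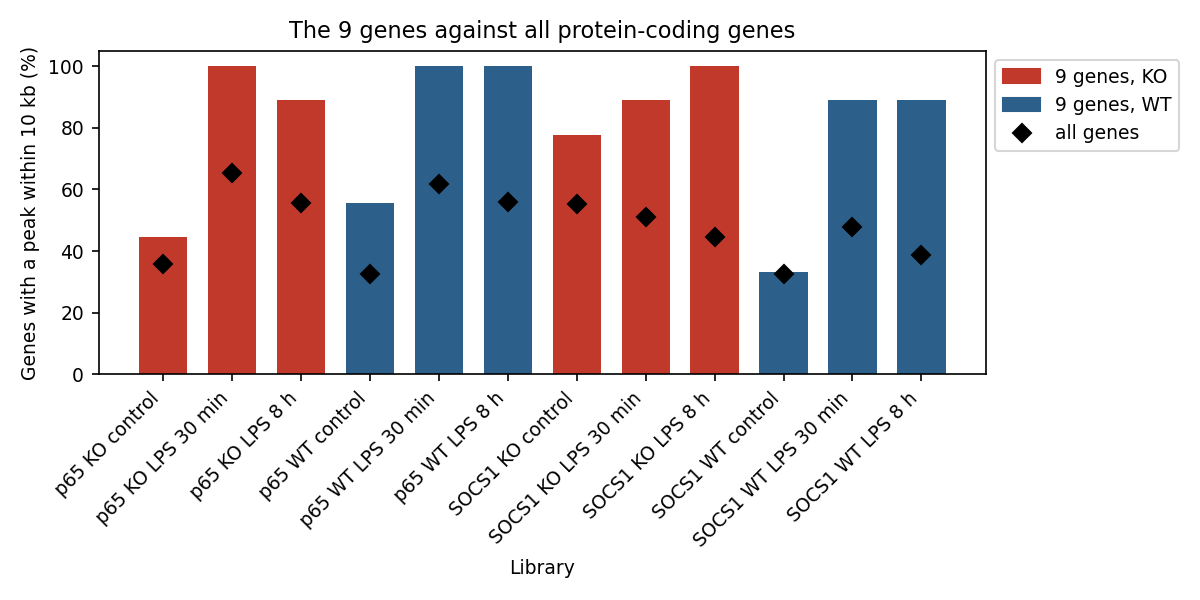
Percentage of the 9 genes (bars, KO and WT) and of all protein-coding genes (diamonds) with a peak within 10 kb in each library. The bars stand above the diamonds in all 12 libraries, and come closest to them in SOCS1 WT control, where 3 of the 9 genes had a peak.

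The 209 peaks merged into 74 sites, of which 44 lay inside a gene's span, 28 had peaks of both antibodies and 26 were called in at least 1 control list. A single list held 36 of the sites, whereas 12 were called in 6 or more lists. In 8 cases a site named by the rule given under processing was missing from a list that had another peak within 2 peak widths, the minimum spacing of calls. In p65 lists the strongest site of each gene could be ranked, since all peaks of a list have the same width. At 30 min in KO cells the order was Cyba, Acod1, Ncf1, Cybb, Sod2, Ptgs2, Ncf4, Gch1 and Nos2 (217.0 down to 22.8). In WT cells at 30 min it was Acod1, Ncf4, Cyba, Sod2, Cybb, Ncf1, Ptgs2, Gch1 and Nos2 (184.7 down to 25.1). Of neighbours in these orders, only Acod1 over Ncf1, Ncf4 over Gch1 and Gch1 over Nos2 in KO, and Cyba over Sod2 and Gch1 over Nos2 in WT, differed beyond counting error. Nos2 came last in all 3 p65 lists that called it, but in WT cells at 8 h Gch1 was only 1.05 times Nos2 (0.68 to 1.62), within counting error.

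**Figure D3:**
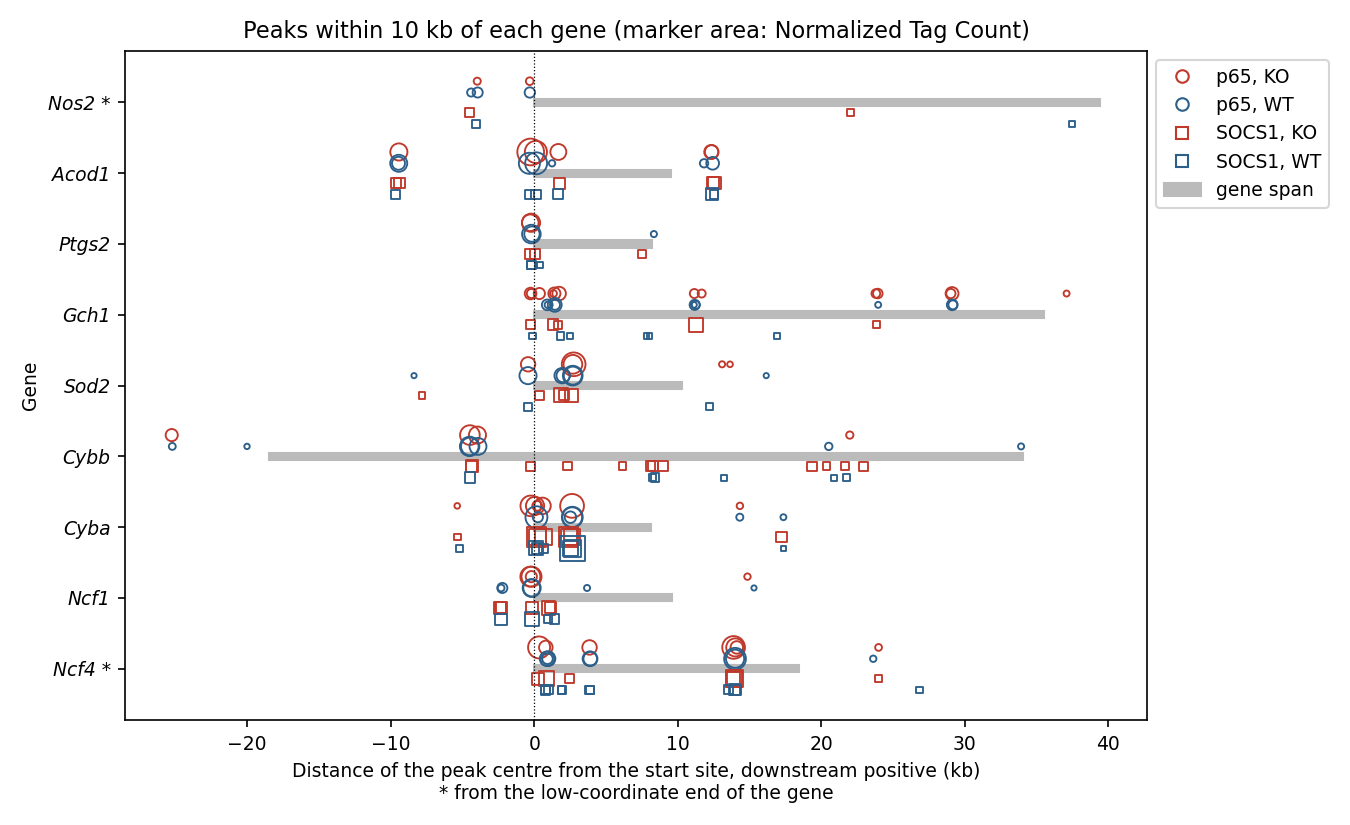
Position of every peak relative to the start site, or to the low-coordinate end for Nos2 and Ncf4 (x axis, kb; downstream positive for the genes with a start site), with marker area for Normalized Tag Count. Circles are p65 and squares SOCS1, KO above WT, and grey bars are gene spans; the 17 sites of Cybb spread over the longest span, 52.5 kb.

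Nos2 (chromosome 11, 78920787 to 78960226) encodes the inducible synthase that makes nitric oxide from arginine. It had the fewest peaks of the 9 genes, 9 at 5 sites, with none in a control list. The site closest to the low-coordinate end lay 304 bp outside the gene (78920364 to 78920602). Its p65 count was 22.8 in KO cells at 30 min and 41.1 in WT cells at 8 h, and it was called in neither genotype at the other LPS time. In KO cells at 8 h no p65 peak lay within 10 kb of Nos2. A cluster about 4 kb outside the same end had p65 counts of 19.3 in KO cells and 25.1 in WT cells at 30 min, and 39.2 in WT cells at 8 h. SOCS1 was called there only at 8 h, with 30.9 in KO cells and 23.7 in WT cells. The strongest p65 peak of Nos2, 41.1, ranked 6192 of 31007 in its list. Lgals9 also lies within 10 kb.

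Gch1 (chromosome 14, 47153895 to 47189413, minus strand) encodes GTP cyclohydrolase, the first and rate-limiting enzyme of tetrahydrobiopterin synthesis, the cofactor of nitric oxide synthases. Its 34 peaks fell into 11 sites, the most peaks of any of the 9 genes. At a site 1431 bp downstream of the start (47187428 to 47188634), p65 in KO cells had 18.2, 56.4 and 70.0 in control, 30 min and 8 h. In WT cells p65 there had 16.9 in control, a pair of peaks of 73.9 and 43.9 at 30 min, and 38.2 at 8 h. This WT control peak overlapped the 43.9 peak, but neither the 73.9 peak nor the 8 h peak. The KO count at 30 min was 3.10 times that in control (1.82 to 5.62), or 4.91 times per bp of peak width, and at 8 h 3.85 times (2.22 to 7.06). In WT cells the 8 h count was 0.52 times that at 30 min (0.35 to 0.75). At 8 h the KO count was 1.83 times the WT count (1.25 to 2.79), or 0.89 times per bp. The KO 8 h peak overlapped the KO control and WT 8 h peaks only in part, its centre lying 396 and 290 bp from theirs. SOCS1 at this site had 26.1 and 43.9 in KO cells in control and at 30 min, and 21.6 in WT cells at 8 h.
A second Gch1 site 11266 bp downstream of the start (47177940 to 47178407) had its highest value with SOCS1 in KO control cells, 77.0. The p65 counts there were 31.5 in KO cells at 30 min, and 24.1, 39.4 and 13.2 in WT control, 30 min and 8 h. The WT count at 8 h was 0.34 times that at 30 min (0.17 to 0.62). The other 9 sites reached at most 64.0.

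Acod1 (chromosome 14, 103047012 to 103056573, plus strand) encodes the enzyme that makes itaconate from cis-aconitate. It carried the strongest peak of all 209. Around its start, p65 had 187.7 in KO cells and 184.7 in WT cells at 30 min, and 274.1 in KO and 170.4 in WT at 8 h, with no control peak. At 30 min the KO count was 1.02 times the WT count (0.86 to 1.20). At 8 h the KO count was 1.61 times the WT count (1.34 to 1.95), or 0.78 times per bp of width. The KO peak ranked 159 of 25811 and the WT peak 272 of 31007. The 30 min and 8 h peaks did not overlap: the 30 min peaks lay downstream of the start and the 8 h peaks upstream of it, so no ratio between the times was formed.
SOCS1 at the Acod1 start was called in WT cells only, with 31.8 at 30 min and 32.6 at 8 h. The SOCS1 peak at 30 min was centred 358 bp upstream of the start and that at 8 h 130 bp downstream, the reverse of p65. These SOCS1 peaks did not overlap each other, and neither overlapped the WT p65 peak of the same time at the start. A site 9427 bp upstream (103037164 to 103037814) had p65 counts of 112.6 in KO cells and 111.1 in WT cells at 30 min, and 64.7 in WT cells at 8 h. The WT count at 8 h was 0.58 times that at 30 min (0.43 to 0.78). SOCS1 there had 34.8 and 40.5 in KO control and 8 h, and 30.5 in WT at 8 h. A site 2777 bp past the end of the gene (103059129 to 103059756) had p65 counts of 75.9 and 70.9 in KO cells at 30 min and 8 h, and 61.9 in WT cells at 30 min. SOCS1 there had 62.7 and 56.6 in KO control and 30 min, and 55.4 and 26.8 in WT at 30 min and 8 h.

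Ptgs2 (chromosome 1, 150100031 to 150108234, plus strand) encodes cyclooxygenase-2, the inducible enzyme of prostaglandin synthesis. Its main site, centred 196 bp upstream of the start (150099513 to 150100273), was called in 8 of 8 LPS lists and 0 of 4 control lists. The merged site covers the sequence printed above, but no p65 peak reached the marked motif. Only the SOCS1 peak of KO cells at 30 min did. The p65 counts were 127.2 and 105.9 in KO cells at 30 min and 8 h, and 90.5 and 132.7 in WT cells. The SOCS1 counts were 35.7 and 34.7 in KO cells, and 26.7 and 25.2 in WT cells. In WT cells p65 at 8 h was 1.47 times that at 30 min (1.14 to 1.89), while in KO cells it was 0.83 times (0.66 to 1.04), or 0.38 times per bp. By the authors' score, which counts at most 1 tag per bp and was divided by total tags here, the 8 h value was higher in both genotypes. It was 1.72 times that at 30 min in KO and 1.29 times in WT. A capped score need not rise in proportion to depth, so the division can lower the deeper library. At 30 min the KO p65 count was 1.41 times the WT count (1.13 to 1.77), but 0.95 times by score. Before division by total tags that score was 80.5 in KO and 61.5 in WT. No SOCS1 ratio at this site had an interval that excluded 1. The other 3 sites reached at most 25.1.

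Sod2 (chromosome 17, 13007839 to 13018119, plus strand) encodes the mitochondrial superoxide dismutase, which turns superoxide into hydrogen peroxide. A site 2750 bp downstream of the start (13010214 to 13010835), inside the gene, had p65 counts of 135.3 and 215.5 in KO cells at 30 min and 8 h, and 124.6 and 148.7 in WT cells. No control list had a p65 peak at any of its 10 sites. At 8 h the KO count was 1.45 times the WT count (1.18 to 1.78), or 0.70 times per bp of width. In KO cells the 8 h count was 1.59 times that at 30 min (1.32 to 1.91), or 0.72 times per bp. The 8 h peaks ranked 382 of 25811 in KO and 385 of 31007 in WT.
SOCS1 at this site was called in KO cells at 30 min only (63.7). In KO control another SOCS1 peak lay 643 bp away, within 2 peak widths. A neighbouring site at 13009544 to 13010153 had SOCS1 counts of 37.9 and 74.6 in KO control and 8 h, the later being 1.97 times the control (1.27 to 3.23) or 3.43 times by score, and p65 counts of 90.5 and 68.5 in WT at 30 min and 8 h. SOCS1 at 30 min and p65 at 8 h were not called at this neighbouring site in KO cells, but another peak of each lay within 2 peak widths. A further site 431 bp upstream of the start had p65 counts of 79.7 in KO and 112.6 in WT at 30 min. No SOCS1 peak lay within 10 kb of Sod2 in WT cells at 8 h.

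**Figure D4:**
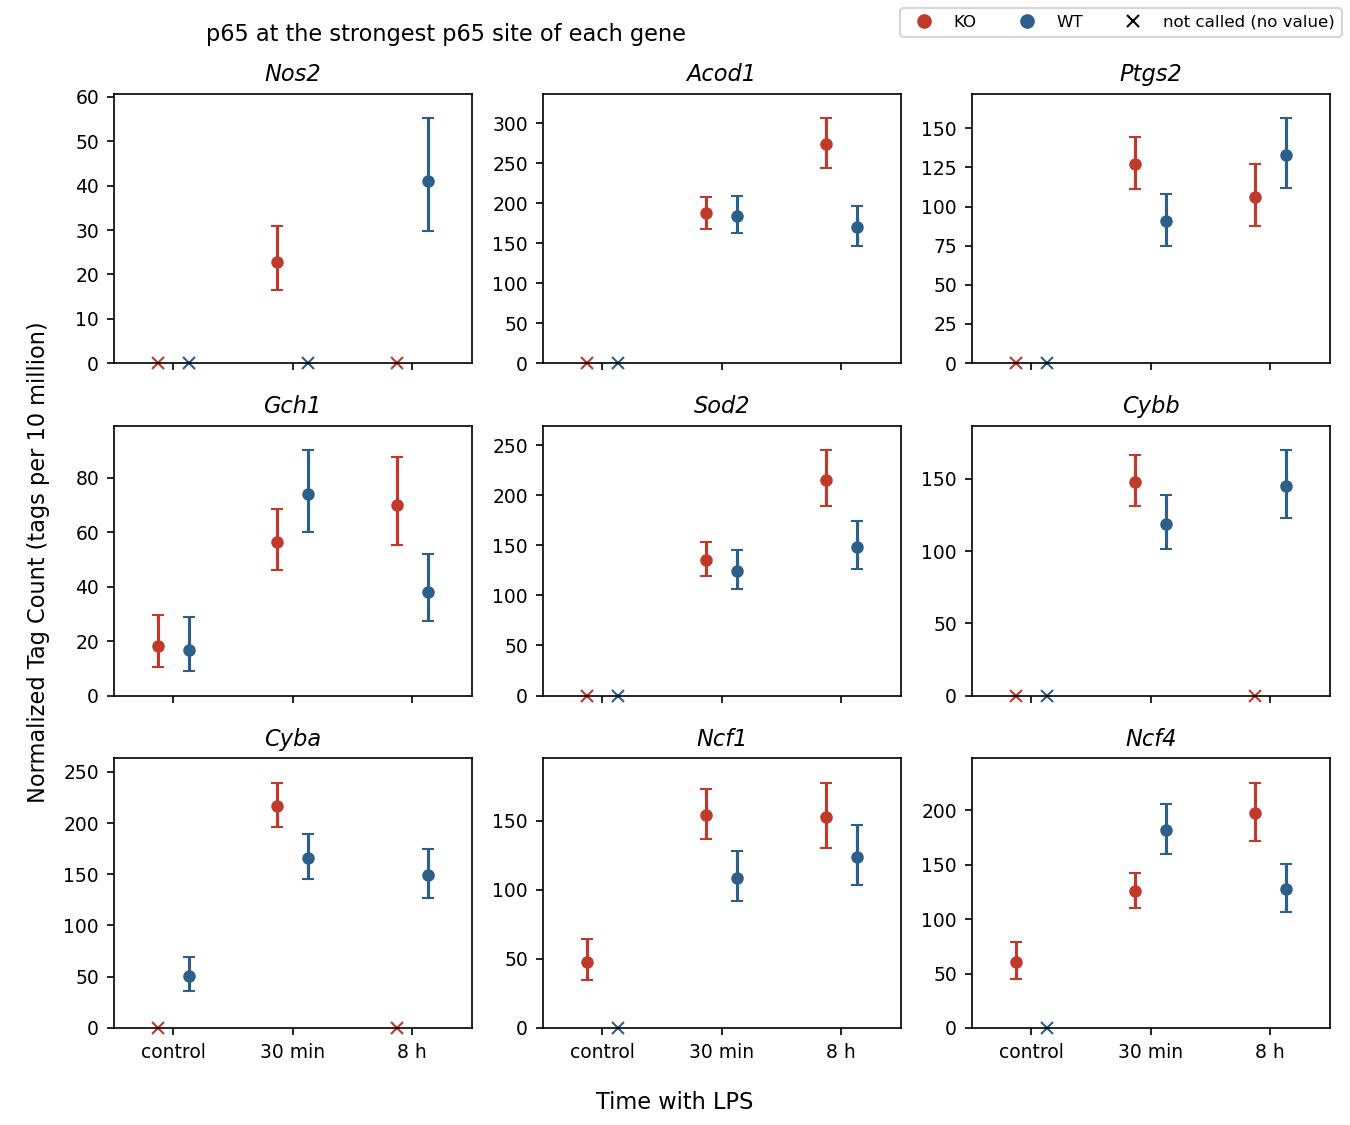
p65 Normalized Tag Count at the strongest p65 site of each gene by time with LPS (points; bars are exact 95% Poisson intervals, counting error only; crosses mark lists with no call, not a count of 0). For Acod1 the 30 min and 8 h points come from neighbouring peaks. For Gch1 the WT control point comes from a peak next to those at 30 min and 8 h. The points of KO and WT at 30 min lie close for Acod1 (187.7 and 184.7) and further apart for Ncf4 (125.6 and 181.7).

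Cybb (chromosome X, 9435252 to 9487766, minus strand) encodes the large, electron-transferring subunit of the oxidase's membrane flavocytochrome. It had 29 peaks at 17 sites, the most sites of any gene. The strongest, 4479 bp upstream of the start site and inside the annotated span (9473457 to 9473939), had p65 counts of 148.1 in KO cells at 30 min, and 119.0 and 145.0 in WT cells at 30 min and 8 h. It was not called by p65 in KO cells at 8 h, where the strongest p65 peak of Cybb was 56.8. The KO count at 30 min was 1.24 times the WT count (1.02 to 1.53), but 0.96 times by the authors' score. Before division by total tags that score was 110.5 in KO and 83.5 in WT. SOCS1 at this site had 51.5 and 46.3 in KO control and 8 h, and 42.6 in WT at 30 min. A site 8272 bp downstream of the start had SOCS1 peaks in all 4 LPS lists, 37.3 and 35.4 in KO and 26.7 and 21.6 in WT, and no p65 peak. In KO control a SOCS1 peak of 39.7 lay 8946 bp downstream of the start, within 2 peak widths of this site.

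Cyba (chromosome 8, 122424771 to 122432940, minus strand) encodes the small subunit that pairs with Cybb's product. It held the strongest SOCS1 peak of the 9 genes. At a site 2664 bp downstream of the start (122430107 to 122430762), SOCS1 had 145.2, 109.8 and 95.2 in KO control, 30 min and 8 h, and 85.1, 228.9 and 109.4 in WT. The WT peak at 30 min ranked 22 of 19631. In KO cells the 30 min count was 0.76 times the control (0.57 to 1.00), while in WT cells it was 2.69 times (2.01 to 3.65), or 1.41 times by score. These peaks overlapped only in part, the centres lying 250 bp apart in KO and 122 bp in WT. The highest SOCS1 count was in control for KO cells and at 30 min for WT cells, but by score the KO value at 8 h was 1.55 times that in control. The KO count was 1.71 times the WT count in control (1.24 to 2.37), but 0.82 times by score, and 0.48 times at 30 min (0.38 to 0.61). IgG stood at its floor under 88.0% of SOCS1 peaks in KO control cells, whose part in this ratio was not tested.
The p65 counts at the same Cyba site were 217.0 in KO cells at 30 min, and 50.7, 166.3 and 149.7 in WT control, 30 min and 8 h. The WT count at 30 min was 3.28 times the control (2.33 to 4.75), or 1.93 times by score. At a site 156 bp downstream of the start (122432505 to 122433288), p65 had 36.4, 163.3 and 127.3 in KO control, 30 min and 8 h, and 39.7 and 184.1 in WT control and 8 h. The KO peak at 30 min was centred 237 bp upstream of the start. It did not overlap the KO control peak, so no ratio between them was formed. At 8 h the p65 count was 3.50 times the control in KO (2.37 to 5.31) and 4.64 times in WT (3.20 to 7.18), the WT value being 2.31 by score. SOCS1 there had 140.0 and 102.3 in KO at 30 min and 8 h, against 77.5 and 43.1 in WT. The KO counts were 1.81 times (1.35 to 2.43; 1.03 per bp) and 2.37 times (1.62 to 3.57) the WT counts. In both control lists another SOCS1 peak lay within 2 peak widths of this site. Zc3h18, Il17c and Mvd also lie within 10 kb.

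Ncf1 (chromosome 5, 134220053 to 134229628, minus strand) encodes the cytosolic organizer subunit. The site centred 187 bp upstream of the start (134229567 to 134230139), over the printed promoter, had p65 counts of 47.8, 154.3 and 152.7 in KO control, 30 min and 8 h, and 108.8 and 124.2 in WT at 30 min and 8 h. In KO cells the 30 min count was 3.23 times the control (2.33 to 4.57), or 5.12 times per bp. At 30 min the KO count was 1.42 times the WT count (1.15 to 1.74), and 1.08 times by the authors' score. SOCS1 was called there only at 8 h, with 56.0 in KO and 73.1 in WT. A site 2300 bp upstream (134231718 to 134232192) had SOCS1 counts of 57.7, 51.6 and 44.4 in KO control, 30 min and 8 h, and 47.6 in WT control. Its p65 counts were 17.6 and 39.2 in WT control and 8 h. Gtf2ird2 and Gtf2i also lie within 10 kb.

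Ncf4 (chromosome 15, 78244164 to 78262582) encodes a cytosolic subunit that binds phosphoinositides. Its site 4526 bp inside the high-coordinate end (78257516 to 78258455) was called in 11 of the 12 lists, the most of any site. The p65 counts were 60.3, 125.6 and 197.3 in KO control, 30 min and 8 h, and 181.7 and 127.5 in WT at 30 min and 8 h. In KO cells the 8 h count was 1.57 times that at 30 min (1.30 to 1.89), or 0.71 times per bp, while in WT cells it was 0.70 times (0.56 to 0.87), or 0.75 times per bp. SOCS1 had 63.3, 96.6 and 106.2 in KO control, 30 min and 8 h, and 32.5, 48.2 and 42.1 in WT. The WT control peak, counted among the 11 lists, overlapped no other SOCS1 peak of the site. It was merged only through the wide p65 peak of KO cells at 8 h, so no SOCS1 ratio to WT control was formed. The KO SOCS1 counts were 2.00 times the WT counts at 30 min (1.39 to 2.92; 1.14 per bp) and 2.52 times at 8 h (1.70 to 3.76).
A site 862 bp inside the low-coordinate end (78244770 to 78245307) had p65 counts of 70.8 in KO at 30 min, and 42.9, 84.1 and 80.7 in WT control, 30 min and 8 h. SOCS1 there had 85.7 in KO at 30 min, and 27.4, 33.9 and 30.5 in WT. In KO cells at 8 h it was not called, but peaks of 185.5 (p65) and 56.6 (SOCS1) lay 522 and 601 bp away, within 2 peak widths.

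**Figure D5:**
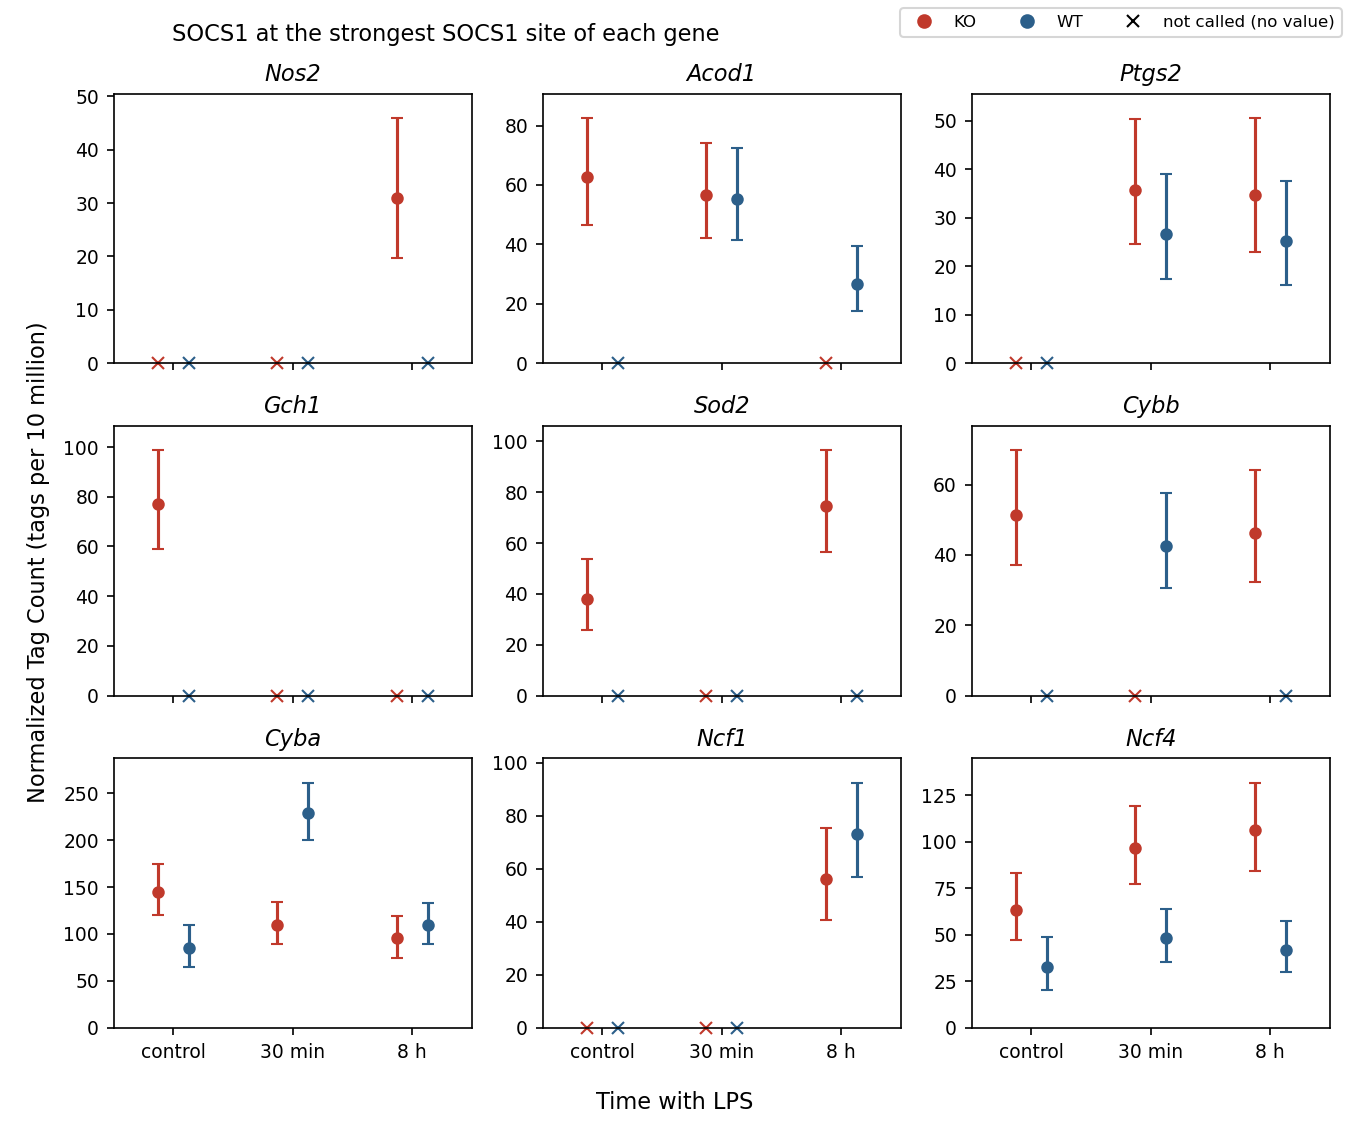
SOCS1 Normalized Tag Count at the strongest SOCS1 site of each gene by time with LPS (points; bars are exact 95% Poisson intervals, counting error only; crosses mark lists with no call). For Ncf4 the WT control point comes from a neighbouring peak. Cyba in WT cells is highest at 30 min with 228.9, whereas in KO cells its count is highest in control with 145.2, though not by score.

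Across the named sites, 93 ratios between overlapping peaks could be formed. p65 in LPS cells exceeded control at every site with overlapping peaks in both, except Gch1 11266 bp downstream in WT cells at 8 h (0.55 times, 0.26 to 1.20). Between genotypes, p65 at 30 min was higher in KO than in WT at 8 of 12 sites, but at 1 of 12 by the authors' score divided by total tags. The KO library was the deeper, with 18.4 against 13.3 M tags. Before the division the score was higher in KO at every site but Ncf4 near its high-coordinate end (98.5 against 100 in WT). At 8 h it was higher in KO at 5 of 7 sites, but at 0 of 7 per bp of width, the KO peaks being 492 bp wide and the WT peaks 238 bp. SOCS1 was higher in KO at 5 of 6 sites at 30 min (3 of 6 per bp) and at 4 of 6 at 8 h (2 of 6 per bp). None of these counts was set against the sites of all genes, so they cannot be called particular to the 9 genes. The libraries also differed as a whole: peaks held 2.12% of p65 tags in WT control, and 13.2% in WT and 15.2% in KO cells at 30 min.

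SOCS1 and p65 peaks overlapped at some members in every condition. In KO cells 2 genes had a shared peak in control (Gch1 and Ncf4), 6 at 30 min (Acod1, Ptgs2, Gch1, Sod2, Cyba and Ncf4) and 5 at 8 h (Ptgs2, Gch1, Cyba, Ncf1 and Ncf4), where 19.1%, 40.4% and 32.1% of all genes had one. In WT cells there were 3 in control (Cyba, Ncf1 and Ncf4), 6 at 30 min (Acod1, Ptgs2, Sod2, Cybb, Cyba and Ncf4) and 6 at 8 h (Nos2, Acod1, Ptgs2, Cyba, Ncf1 and Ncf4), where 11.8%, 35.2% and 30.7% of all genes had one. Ncf4 was on all 6 of these lists. Of the SOCS1 peaks at the members in KO cells, 3 of 20 overlapped a p65 peak in control (15%, 3.21 to 37.9), 7 of 13 at 30 min (53.8%, 25.1 to 80.8) and 6 of 20 at 8 h (30%, 11.9 to 54.3). Over all SOCS1 peaks the shares were 16.3%, 60.1% and 56.2%. In WT cells they were 3 of 6 (50%, 11.8 to 88.2), 9 of 24 (37.5%, 18.8 to 59.4) and 9 of 18 (50%, 26.0 to 74.0), against 25.5%, 53.1% and 66.2% of all SOCS1 peaks. Of the p65 peaks at the members, 3 of 5, 7 of 32 and 6 of 13 overlapped a SOCS1 peak in KO cells, and 3 of 8, 9 of 23 and 9 of 27 in WT cells. The share over all p65 peaks was not worked out, so these p65 counts cannot be called particular to the members.

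Partner genes of the same pathways also had peaks. Of 42 such genes, p65 peaks lay near 25, 40 and 36 in KO control, 30 min and 8 h (59.5%, 95.2% and 85.7%, where all genes gave 35.8%, 65.4% and 55.5%). In WT cells they lay near 25, 38 and 39 (59.5%, 90.5% and 92.9%, against 32.7%, 61.9% and 55.9% of all genes). SOCS1 peaks lay near 35, 36 and 32 in KO cells (83.3%, 85.7% and 76.2%, against 55.3%, 51.0% and 44.6%) and 27, 34 and 28 in WT cells (64.3%, 81.0% and 66.7%, against 32.4%, 47.7% and 38.6%). Of 7 oxidase partners, between 5 and 7 had a peak in every list. The highest p65 counts among them were near Vav1, a Rac exchange factor (251.4, KO at 8 h), and Prkcd, a kinase that phosphorylates oxidase subunits (183.2, WT at 30 min). Their highest SOCS1 counts were near Cybc1, a chaperone of the flavocytochrome (170.2), and Prkcd (169.7), both in KO at 30 min.
Among 10 nitric oxide and tetrahydrobiopterin partners, Slc7a2, an arginine transporter (184.1, KO at 8 h), had the highest p65 count. Asl, argininosuccinate lyase (121.0, KO control), and Spr, sepiapterin reductase (109.8, KO at 30 min), led for SOCS1. Among 9 prostaglandin partners, Pla2g4a, the cytosolic phospholipase that frees arachidonic acid (328.7), and Ptges, the inducible prostaglandin E synthase (244.1), led for p65, both in KO at 8 h. Ptges2, another prostaglandin E synthase (436.4, KO control), and Ptges (106.8, KO at 8 h) led for SOCS1.
Among 8 superoxide and peroxide enzymes, Txn1, thioredoxin (269.1), and Txnrd1, its reductase (185.8), led for p65, and Gpx1, glutathione peroxidase (275.6), and Txnrd1 (194.9) for SOCS1, all in KO at 30 min. Among 8 other antimicrobial genes, Slc11a1, a metal transporter of the phagosome (348.5), and Lcn2, which captures bacterial siderophores (157.6), led for p65 in KO at 30 min. For SOCS1 these were Lcn2 (436.4, KO control) and Slc11a1 (74.9, WT at 30 min). The Lcn2 and Ptges2 values of 436.4 come from the same peak, which lies within 10 kb of each gene and ranked 7 of 24270. The p65 peak of 157.6 given for Lcn2 also lies within 10 kb of Ptges2, and is the strongest p65 peak of both genes.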

How the data were processed

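CUT&RUN libraries of p65 and SOCS1 gave 12 peak lists, 1 per group. The labels list 20 samples. Of these, 6 IgG libraries served only in the peak calling, and 2 internal controls were left out. Per the submitters' processing notes, cutadapt, Bowtie2 2.4.1 and HOMER 4.11 were used with mm10. Per the file headers, HOMER's findPeaks called each list in factor mode against the IgG library matched for genotype and treatment, with an FDR of 0.001, at least 4-fold over IgG and over the local 10 kb, and a Poisson p of at most 0.0001.

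The deposited signal is the Normalized Tag Count, scaled by the authors to 10000000 tags, and the IgG tags in the peak. The authors' score is the findPeaks score, limited to 1 tag per bp and not scaled to depth. For ratios it was divided by total tags here, which does not fully equalise depth for a capped score. The deposited ratio is the authors' fold over IgG or over the local background. Depth was 8.79, 18.4 and 11.0 M tags for p65 in KO control, 30 min and 8 h, and 7.69, 13.3 and 10.6 M in WT. For SOCS1 it was 8.06, 9.11 and 7.77 M in KO, and 6.93, 9.74 and 9.51 M in WT.

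Peaks were assigned to RefSeq spans (GRCm38.p6) and merged into sites where they overlapped by at least 1 bp. Tags were recovered as Normalized Tag Count times total tags over 10000000. Ratios were formed only between overlapping peaks (10 pairs without overlap were left out), with exact binomial intervals. The intervals and the assignment were tested on simulated data. Sites named for each gene are the one with the highest count of each antibody and every site in at least 6 lists; sites named beyond that rule (near Nos2, Sod2, Cybb and Ncf4) were chosen after their values were seen. From each pathway list the 2 genes highest for each antibody are named. An item that this rule selects is not reported here. The members and lists were chosen with earlier results of these data known. Alternatives were a 5 kb window, 8-fold thresholds, a common lowest count, the score, width and other overlap rules. Python 3.11.15, pandas 2.3.3 and scipy 1.17.1 were used. The labels mention a spike-in, which was not used here.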

Additional observations from a re-analysis of the deposited data

Results flagged for a closer look

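The site inside Ncf4 near its high-coordinate end moved in opposite directions with time in the genotypes: the p65 count at 8 h was 1.57 times that at 30 min in KO cells and 0.70 times in WT cells. Per bp of peak width the KO value was 0.71 and the WT value 0.75, so the directions no longer differed. The Cyba site 2664 bp downstream of the start did so for SOCS1: the 30 min count was 0.76 times the control in KO cells and 2.69 times in WT cells. By score the values were 0.85 and 1.41, and per bp 0.79 and 4.07. The peaks compared overlapped only in part, their centres lying 250 bp apart in KO and 122 bp in WT. IgG stood at its floor under 88.0% of SOCS1 peaks in KO control, whose part was not tested. With 1 library per group neither difference was tested.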

How the results depend on the processing

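No paired analysis was possible because each group has 1 library. With a 5 kb window, a common lowest Normalized Tag Count of 10.3, other overlap rules or merging by centres within 250 bp, no count or share moved past its limit. Requiring 8-fold over the local background left p65 members with a peak at 3 (KO 8 h, as many as in KO control) and 1 (WT control), and SOCS1 members at 4 (KO 30 min), 2 (KO 8 h), 1 (WT control) and 4 (WT 8 h). Member peaks became 3, 11 and 4 (p65 KO control, 30 min, 8 h), 1, 8 and 12 (p65 WT), 10, 5 and 2 (SOCS1 KO), and 1, 9 and 4 (SOCS1 WT). SOCS1 shares overlapping p65 became 100% of only 2 peaks (KO 8 h), 0% of 1 peak (WT control) and 75% of 4 peaks (WT 8 h). At 8-fold over IgG, p65 WT control had 3 members and 3 peaks, and SOCS1 WT 30 min had 15 peaks. By score divided by total tags, sites above 1 numbered 1 for p65 KO over WT at 30 min, 7 for p65 8 h over 30 min in KO, 6 for SOCS1 8 h over control in KO, 4 for SOCS1 30 min over control in KO, 5 (KO) and 3 (WT) for SOCS1 8 h over 30 min, and 0 for SOCS1 KO over WT in control. Per bp they numbered 0 for p65 KO over WT at 8 h, 0 for p65 8 h over 30 min in KO, 2 for SOCS1 KO over WT at 8 h, 3 at 30 min, and 2 for SOCS1 8 h over 30 min in KO. Directions reversed by score at Ncf4 (p65 8 h over 30 min, WT, 1.01), Ptgs2, Cybb and Cyba (p65 KO over WT at 30 min, 0.95, 0.96 and 0.91), Cyba 2664 bp downstream (SOCS1 8 h over control in KO, 1.55; KO over WT in control, 0.82) and Cyba 156 bp downstream (p65 KO over WT at 8 h, 1.05; 8 h over 30 min in KO, 1.36 for p65 and 1.23 for SOCS1). Per bp they reversed for p65 KO over WT at 8 h at Acod1 (0.78), Gch1 (0.89), Sod2 (0.70) and Ncf4 (0.75), and for p65 8 h over 30 min in KO at Sod2 (0.72) and Ncf4 (0.71). The cause was not tested, beyond the division by total tags entering the first calculation and the width entering the second. Before that division the p65 scores at 30 min were higher in KO than in WT at these Ptgs2, Cybb and Cyba sites (Cyba 123.5 against 98.5). Lists whose lowest score was 7 to 12 tags cannot show weaker sites.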
